A study of Mus musculus with 30 samples.

Results

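RNA levels of naive mouse embryonic stem cells that lacked both KMT2C and KMT2D were compared with those of cells that lacked KMT2C alone, after 16 h in ethanol without tamoxifen. The comparison rested on 6 of the study's 30 libraries, 3 for each line, and covered 12414 of the 12428 genes in the deposited table. By their labels, the cells of the Kmt2c-KO group have a Kmt2c knockout, floxed Kmt2d alleles (written Kmtd fl/fl) and a GRHL2-ERT transgene. The cells of the double-KO group have knockouts of Kmt2c and of Kmt2d and the same transgene. Both groups therefore share the Kmt2c knockout, the transgene, the ethanol and the C57BL/6J x 129 background, and none of the libraries compared came from cells with intact Kmt2c. Per the labels' protocols the medium held serum and LIF together with inhibitors of MEK and of GSK3. The series' design text says that clones were picked for similar GRHL2 expression, and each genotype was represented by 1 line. Loss of KMT2D and any other difference between these 2 lines cannot be told apart. The replicates are numbered without a statement of separate cultures, so each p measured the spread between libraries, which may be technical.

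KMT2C and KMT2D are large, related histone methyltransferases that place mono-methyl marks on histones at enhancers and bring the demethylase KDM6A with them. Naive embryonic stem cells resemble the early epiblast of the blastocyst and self-renew in LIF with inhibitors of MEK and GSK3, and they pass through a formative state before they differentiate. GRHL2 is a transcription factor of epithelial cells, and its fusion to the ligand-binding domain of the estrogen receptor is held outside the nucleus until tamoxifen is added.

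The 6 libraries had 12594000 to 16981000 recovered reads over the genes of the table. Levels are in CPM, reads scaled to a library total of 1000000, and 3 reads stood for 0.177 to 0.238 CPM. The ribosomal RNA gene Rn45s took 2.11 to 2.61% of reads in Kmt2c-KO and 1.85 to 2.49% in double-KO libraries. Libraries of the same line correlated at 0.991 to 0.992 over genes on the log2(CPM + 1) scale, and libraries of different lines at 0.936 to 0.939. Fold changes below are differences of log2(CPM + 1), double-KO over Kmt2c-KO. They were centred on the median of all genes, which lay at 0.35 before centring, so higher and lower mean relative to the typical gene. A gene was called at a limma adjusted p under 0.05.

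Of 12414 tested genes 5004 (40.31%) were called, with 2378 (19.16%) at a higher and 2626 (21.15%) at a lower level in the double-KO line. A log2 fold change of at least 1 was reached by 912 of the higher genes (7.347% of those tested) and by 856 of the lower ones (6.895%). The libraries of the lines did not overlap in CPM for 912 of these 912 and for 840 of these 856, beside 8652 (69.7%) of all tested genes. Of the 912, 306 had a mean under 1 CPM in Kmt2c-KO cells, and of the 856, 258 had a mean under 1 CPM in double-KO cells. Without centring the split of calls was 4967 higher and 1236 lower, and 121 of the 2626 genes called lower then lay above 0, none of them called. The plot of fold change against level shows the called genes on both sides at nearly every level.

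**Figure D1:**
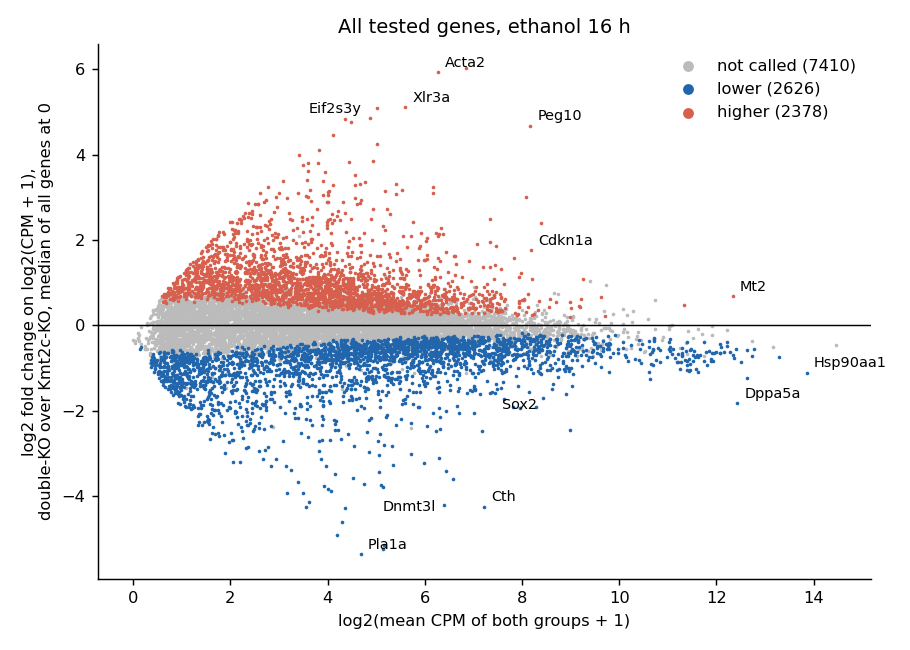
Each of 12414 points is a tested gene, with log2(mean CPM of both groups + 1) on the horizontal axis and the centred log2 fold change, double-KO over Kmt2c-KO, on the vertical axis. The 2378 genes called higher are red, the 2626 called lower are blue and the 7410 not called are grey, and most of the genes farthest to the right, such as Hsp90aa1 and Dppa5a, lie below 0.

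Median differences were not the same in genes of different levels. The 144 genes with at least 1000 CPM took 46.2 ± 0.484% of reads in Kmt2c-KO and 39.0 ± 0.312% in double-KO libraries (SD, n = 3 each), and their median log2 fold change was -0.59. Genes between 5 and 20 CPM had a median of 0.13, and the 1398 genes between 100 and 1000 CPM had one of -0.22. The 65 ribosomal protein genes described below summed to 211005 to 216263 CPM in Kmt2c-KO and 167770 to 170837 CPM in double-KO libraries. The lower share of the most abundant genes is therefore not separate from the result for ribosomal protein genes. Hsp90aa1, which encodes a heat shock chaperone, had the values 19039, 18050 and 18996 CPM in Kmt2c-KO and 11037, 10861 and 11028 CPM in double-KO libraries (-1.11 ± 0.10 SE; limma adjusted p = 1.1e-09). Dppa5a, an RNA-binding protein gene of pluripotent cells, had 8082 ± 321 CPM and 2899 ± 29.8 CPM (-1.82 ± 0.23; adjusted p = 1.1e-06). The metallothionein gene Mt2 went the other way, at 3384 ± 82.7 CPM and 6931 ± 285 CPM (0.69 ± 0.11; adjusted p = 8.5e-06). Hsp90aa1 and Mt2 were chosen after their values were seen.

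Tags of the genes that define the lines came first as a check of the labels. Kmt2d (mm10 chromosome 15, 98831669 to 98871204) had 9.07, 8.81 and 8.49 CPM in Kmt2c-KO and 8.18, 8.13 and 6.62 CPM in double-KO libraries. All 3 double-KO values were below the Kmt2c-KO values, and the difference missed the threshold (-0.53 ± 0.23; limma adjusted p = 0.070). Without centring it was smaller and far from a call (-0.18; adjusted p = 0.53). Kmt2c had 11.2 ± 0.839 CPM and 18.9 ± 0.396 CPM (0.36 ± 0.16; adjusted p = 0.077), and was called higher without centring (0.70; adjusted p = 6.5e-04). Which exons were deleted is not given in the sources used here, so these tags, taken near the 3' end of the RNA, may lie outside the deleted part and do not test either knockout. Grhl2 tags, which sum the gene and any transgene RNA that the tag reads, had 69.2, 73.5 and 90.2 CPM in Kmt2c-KO and 47.0, 48.9 and 61.5 CPM in double-KO libraries. The groups did not overlap and Grhl2 was lower in double-KO cells (-0.90 ± 0.25; adjusted p = 4.4e-03), a call that was lost without centring (-0.56; adjusted p = 0.062). Esr1, the estrogen receptor gene, was lower as well, at 58.4 ± 3.54 CPM and 29.9 ± 4.65 CPM (-1.30 ± 0.47; adjusted p = 0.030), a call lost without centring (-0.95; adjusted p = 0.0961) and without any 1 of the libraries except double-KO replicate 2 (adjusted p = 0.0578 to 0.0827). Kmt2c-KO cells without the transgene, given tamoxifen for 16 h, had 1.78 ± 0.617 CPM of Grhl2 and 6.78 ± 1.51 CPM of Esr1.

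The genes with the largest reductions in double-KO cells included a cofactor of DNA methylation, metabolic enzymes and a sensor of viral RNA. Pla1a, a phospholipase gene (chromosome 16, 38396117 to 38433145), had 49.9, 48.4 and 48.5 CPM in Kmt2c-KO and 0.434, 0.589 and 0.584 CPM in double-KO libraries. Every double-KO library lay close to the level of a few reads (-5.37 ± 0.16; limma adjusted p = 4.9e-20). Dnmt3l, a cofactor of the de novo DNA methyltransferases (chromosome 10, 78041947 to 78063622), had 152, 163 and 151 CPM against 9.98, 8.60 and 10.6 CPM (-4.22 ± 0.14; adjusted p = 6.4e-19). Cth, which encodes the cystathionine gamma-lyase that makes cysteine (chromosome 3, 157894248 to 157925077), had 282, 304 and 247 CPM against 16.37, 17.02 and 19.14 CPM (-4.26 ± 0.25; adjusted p = 4.1e-13). Ddx58, the gene of the RNA sensor RIG-I, had 54.8, 76.3 and 59.5 CPM against 5.46, 4.59 and 4.61 CPM (-3.79 ± 0.18; adjusted p = 1.2e-15). Groups without overlap were a condition for naming these genes, so their separation is not a separate result. The other 11 of the 15 were Mcf2, a guanine nucleotide exchange factor gene, Pla2g1b, a secreted phospholipase gene, the myosin gene Myo1f, Gpa33, the epoxide hydrolase gene Ephx2, the nucleoside transporter gene Slc28a1, Dusp27, Mia, Pdcl2, the homeobox gene Crxos and Tcl1, from -5.24 to -3.83. The Kmt2c-KO means of these 11 ran from 15.5 CPM for Pdcl2 to 68.5 CPM for Pla2g1b, and their double-KO means from 0.397 CPM for Pdcl2 to 1.69 CPM for Crxos. In bulk RNA, fewer cells of a type and less RNA per cell cannot be told apart, here and below.

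The genes with the largest increases were mostly near 0 in Kmt2c-KO cells. Acta2, the gene of smooth muscle actin (chromosome 19, 34241090 to 34255590), had 0.888, 0.873 and 1.08 CPM in Kmt2c-KO and 140, 162 and 149 CPM in double-KO libraries (5.94 ± 0.25; limma adjusted p = 6.6e-17). Peg10, an imprinted gene derived from a retrotransposon that acts in the placenta (chromosome 6, 4747306 to 4760517), had 18.7, 13.7 and 16.5 CPM against 558, 516 and 598 CPM (4.68 ± 0.16; adjusted p = 6.4e-19). Its neighbour Sgce, the epsilon-sarcoglycan gene, which is imprinted too, had 2.54, 2.54 and 1.58 CPM against 54.7, 61.5 and 54.8 CPM (3.84 ± 0.53; adjusted p = 3.3e-06). Peg10 had 16.3 CPM as its Kmt2c-KO mean, and the other 14 of the 15 had at most 2.22 CPM. Igfbp5, which encodes a secreted binder of insulin-like growth factors, had 0.190, 0 and 0.431 CPM against 31.7, 39.0 and 27.1 CPM (4.45 ± 0.27; adjusted p = 1.2e-13). Sox9, a transcription factor gene of cartilage and other lineages, had 0.127, 0.318 and 0.431 CPM against 22.6, 18.4 and 24.8 CPM (3.80 ± 0.24; adjusted p = 3.5e-13). The others were Xlr3a, Xlr3b, Xlr4a, Xlr4b and Pnma5 of the X chromosome, Eif2s3y of the Y chromosome, Hoxa9, Hoxc8, Dlk1 and the skeletal actin gene Acta1, from 3.75 to 5.11. The transcript AI662270, which has only a clone name, had a larger fold change (6.02), and it was left out of the 15 by its name.

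**Figure D2:**
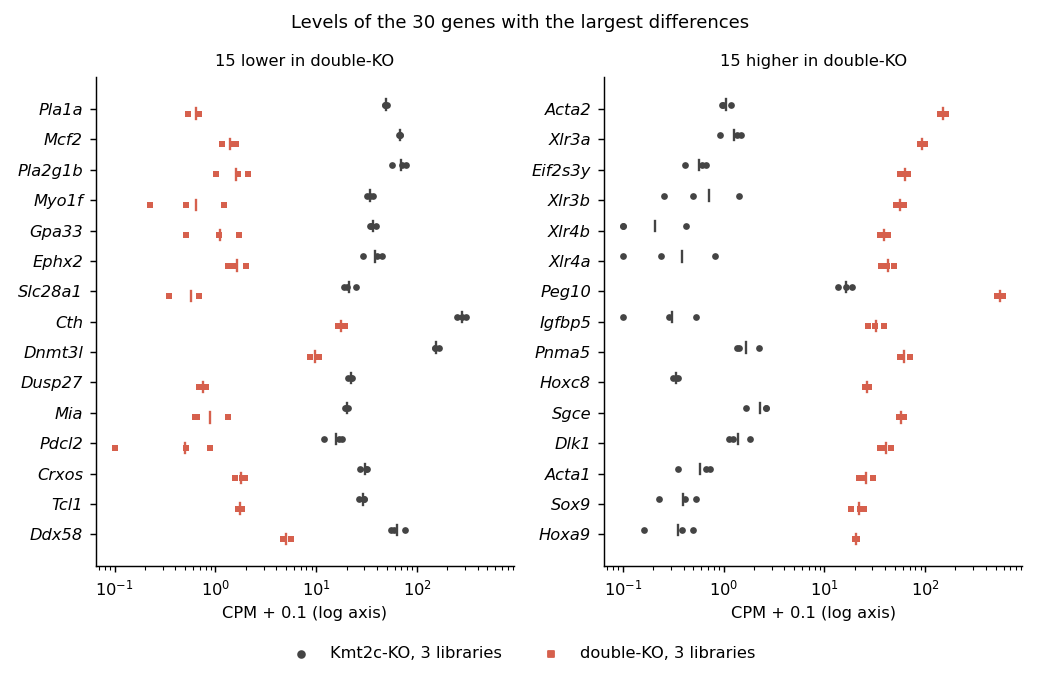
The panels give CPM + 0.1 on a log axis for the 15 genes with the largest reductions (left) and the 15 with the largest increases (right) in double-KO cells. Points are the 3 Kmt2c-KO (grey circles) and 3 double-KO libraries (red squares), and short lines are group means. Groups that do not overlap were a condition for a gene to be shown.

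Genes of actin and of contractile cells were higher as a group. Of 23 tested members 17 were higher, 1 was lower and 5 were not called, beside 19.16% higher and 21.15% lower of all tested genes, and the median was 1.11 against 0 over all genes. The counts of the lists below are to be read against the same shares. Beside Acta2, the cardiac actin gene Actc1 had 0.507, 0.635 and 0.288 CPM in Kmt2c-KO and 21.5, 22.9 and 21.2 CPM in double-KO libraries (3.61 ± 0.26; limma adjusted p = 6.1e-12). Acta1 had 0.254, 0.635 and 0.575 CPM against 21.9, 30.2 and 24.7 CPM (3.81 ± 0.27; adjusted p = 5.2e-12). Calponin, encoded by Cnn1, and transgelin, encoded by Tagln, both bind actin in smooth muscle. Cnn1 had 0.369 ± 0.210 CPM against 12.97 ± 1.16 CPM (3.01; adjusted p = 1.3e-09), and Tagln had 4.61 ± 1.82 CPM against 37.9 ± 2.74 CPM (2.49; adjusted p = 1.7e-06). Annexin genes Anxa1 (2.89) and Anxa3 (2.28) and the tropomyosin genes Tpm1 (0.90), Tpm2 (1.23) and Tpm4 (0.81) were higher too. The 1 member called lower was the calcium-binding protein gene S100a11 (-0.49; adjusted p = 0.014), and it was not called without centring (-0.15; adjusted p = 0.46) or without double-KO replicate 1 (adjusted p = 0.0645). Without centring 18 members were higher and 0 lower.

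The 3 actin genes are shown by the 250 bases before their start sites, from RefSeq on GRCm38.p6. They were picked as actin genes that came from near 0 and have a known motif there, so its presence in them is not a separate result. Cnn1, which came from near 0 too, is not shown. The CArG box, the binding motif of serum response factor, was searched on both strands, counted once per position, with 0 or 1 mismatches in the central A or T letters. Capitals mark these matches. All 3 genes lie on the minus strand, and each sequence is written 5' to 3' along its gene.
Acta2 (chr19:34255374-34255623, minus strand): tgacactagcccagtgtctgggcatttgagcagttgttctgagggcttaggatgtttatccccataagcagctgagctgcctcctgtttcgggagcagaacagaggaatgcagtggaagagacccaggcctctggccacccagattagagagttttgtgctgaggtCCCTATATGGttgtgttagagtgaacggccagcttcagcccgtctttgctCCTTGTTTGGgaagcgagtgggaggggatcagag
Acta1 (chr8:123894776-123895025, minus strand): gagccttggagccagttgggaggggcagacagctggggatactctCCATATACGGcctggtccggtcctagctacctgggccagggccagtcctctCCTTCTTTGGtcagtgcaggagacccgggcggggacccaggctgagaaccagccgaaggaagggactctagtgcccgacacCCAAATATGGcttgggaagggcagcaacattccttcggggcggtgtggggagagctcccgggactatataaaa
Actc1 (chr2:114052876-114053125, minus strand): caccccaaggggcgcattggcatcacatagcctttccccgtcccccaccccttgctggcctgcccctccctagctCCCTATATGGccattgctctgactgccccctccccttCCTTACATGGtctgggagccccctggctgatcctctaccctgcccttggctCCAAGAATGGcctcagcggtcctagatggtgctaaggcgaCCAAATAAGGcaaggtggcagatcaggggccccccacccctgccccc
Acta2 held 2 matches, each with 1 mismatch, which began 84 and 34 bases before the start. Acta1 held a full CArG box at 73 bases and 2 matches with 1 mismatch at 205 and 154 bases. Actc1 held a full box at 47 bases and 3 others at 175, 138 and 87 bases. Of 17 contractile genes with a single RefSeq start, 4 (23.5%) held a full box and 5 (29.4%) a box with at most 1 mismatch. The shares were 1.12% and 7.70% of all 7517 tested genes with such an entry. Among genes called higher by at least 1 (547 with an entry) they were 1.46% and 6.95%, near those of all genes. A match is a string of letters and not evidence of binding.

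Imprinted genes, which are expressed from 1 parental copy, were mostly higher. Of 30 tested members 17 were higher, 2 were lower and 11 were not called, with a median of 0.57, and without centring 19 were higher and 1 lower. Of the 17, 1 reached 1 CPM in double-KO groups only. Xlr3a, of the X-linked family below, was among them. Dlk1, a membrane ligand related to Delta and expressed from the paternal copy, had 1.14, 1.03 and 1.73 CPM in Kmt2c-KO and 35.6, 46.2 and 39.3 CPM in double-KO libraries (3.83 ± 0.29; limma adjusted p = 1.8e-11). Meg3 and Rian, maternally expressed RNAs of the same locus, had 79.0 ± 2.65 CPM and 28.4 ± 2.07 CPM in Kmt2c-KO and 106 ± 4.35 CPM and 41.5 ± 6.23 CPM in double-KO cells, and neither was called (0.07 and 0.18), but Meg3 was called higher without centring (0.41; adjusted p = 0.0212). Mest, a hydrolase gene (2.27), the neuronal genes Nnat (1.93) and Ndn (1.94), H19 (1.35), Gnas (1.32), Igf2 (1.10), Peg3 (1.10) and the growth factor receptor gene Igf2r (0.92) were higher. Airn, the antisense RNA of the Igf2r locus, had 0.0634, 0.0794 and 0.216 CPM against 3.53, 3.89 and 4.67 CPM (1.82 ± 0.25; adjusted p = 1.4e-06), and use of strand in the counting is not stated. The members called lower were Grb10, an adaptor of the insulin receptor (-1.67 ± 0.23; adjusted p = 8.4e-07), and Zrsr1 (-0.41; adjusted p = 6.8e-03), which was not called without centring (-0.07; adjusted p = 0.67) or without double-KO replicate 2 (adjusted p = 0.0532). Snrpn was listed at 0 in 1 double-KO library and at 53.9 and 61.0 CPM in the others, and was not called (-2.40 ± 1.78; adjusted p = 0.30).

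Members of the X-linked Xlr and Rhox families were called higher, and germ cell markers went both ways. Xlr3a had 0.823, 1.38 and 1.27 CPM in Kmt2c-KO and 89.4, 91.0 and 99.8 CPM in double-KO libraries (5.11 ± 0.19; limma adjusted p = 4.0e-18). The 8 tested members of the Xlr family were higher, from 1.79 to 5.11. Of these, 6 reached the 1 CPM needed for testing in double-KO groups only, so that a lower call was hardly possible for them and their count supports nothing. Also, 4 of 5 tested Rhox homeobox genes were higher, from 1.04 for Rhox2a to 2.50 for Rhox5, with Rhox13 at -0.11 and not called. Of these 4, 1 reached 1 CPM in double-KO groups only. Copies of Xlr3 and Xlr4 are nearly identical, so that the split of tags among them is uncertain. Both families were grouped after their values were seen. Of 12 germ cell markers 7 were higher and 4 lower (median 0.64). The higher ones included Rhox5, Rhox6 and Rhox9, so this count and the summed level below are not separate from the Rhox result. The lower ones were Dazl, an RNA-binding protein gene of early germ cells (19.4 ± 1.27 CPM against 4.19 ± 0.985 CPM; -2.34 ± 0.25; adjusted p = 1.2e-08), the meiotic genes Sycp1 (-0.73; not called without centring) and Sycp3 (-2.15), and Mael (-2.05). The summed level of the 12 markers was 112 to 123 CPM in Kmt2c-KO and 273 to 300 CPM in double-KO libraries, and the part of other cell types in it was not tested. Among genes marked by the Dppa name, Dppa2 (109 ± 3.27 CPM against 32.6 ± 3.33 CPM; -2.07 ± 0.10; adjusted p = 5.7e-16), Dppa3 (-2.53), Dppa4 (-1.48) and Dppa5a were all lower. The list that holds them, of Dppa and germline-associated genes, went both ways. Of its 17 tested members 8 were higher and 7 lower (median -0.12), with 9 and 7 without centring. It shares members with the Xlr and Rhox families, and 1 of the 8 reached 1 CPM in double-KO groups only.

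Hox genes pattern the body axis and are held silent by Polycomb complexes in embryonic stem cells. Of 22 tested Hox genes, grouped after their values were seen, 19 were higher by limma and 3 (Hoxc4, Hoxc12 and Hoxd4) were not called. For 11 of the 22 the 1 CPM needed for testing was reached in double-KO groups only, so that a lower call was hardly possible for them. Among the 11 that reached it in a group of Kmt2c-KO cells, at any time or treatment, 10 were higher. Without centring Hoxc4 (0.77; adjusted p = 0.0143) and Hoxd4 (0.92; adjusted p = 2.9e-03) were called higher too. Hoxa9 had 0.0634, 0.397 and 0.288 CPM in Kmt2c-KO and 20.8, 19.8 and 20.2 CPM in double-KO libraries (3.75 ± 0.21; limma adjusted p = 1.8e-14). Hoxc8 had 0.254, 0.238 and 0.216 CPM against 25.3, 25.5 and 27.5 CPM (4.11 ± 0.26; adjusted p = 3.4e-13). Of the Kmt2c-KO means only that of Hoxc13, 6.24 CPM, exceeded 2 CPM. Among 26 Polycomb genes 9 were higher and 5 lower (median 0.20), with 13 and 2 without centring, and the lower share is near the 21.15% of all tested genes. Yaf2 (1.63 ± 0.18; adjusted p = 2.6e-08) and Bmi1 (1.10), of the complex that ubiquitinates histones, were higher. Mtf2, an accessory protein of the complex that methylates them (530 ± 18.4 CPM against 331 ± 9.62 CPM; -1.03 ± 0.08; adjusted p = 1.2e-11), and its core subunit Eed (-0.999) were lower, Eed with no call without centring.

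Genes of naive pluripotency were mostly lower, and the central factors differed in size. Of 22 tested members 12 were lower, 2 were higher and 8 were not called (median -0.70), with 11 lower and 6 higher without centring. Their summed level, which is not centred and rests mostly on the abundant members, was alike, at 4081 to 4195 CPM in Kmt2c-KO and 4080 to 4233 CPM in double-KO libraries. Sox2 (chromosome 3, 34650405 to 34652461) had 241, 262 and 227 CPM in Kmt2c-KO and 109, 96.0 and 103 CPM in double-KO libraries (-1.59 ± 0.10; limma adjusted p = 3.6e-13). Pou5f1, which encodes OCT4, had 438, 423 and 420 CPM against 319, 305 and 386 CPM, and missed the threshold (-0.69 ± 0.30; adjusted p = 0.069). Nanog had 754, 752 and 723 CPM against 899, 967 and 859 CPM, so that its libraries did not overlap in CPM while its centred fold change was -0.06 ± 0.25 (adjusted p = 0.88) and its uncentred one 0.29 (adjusted p = 0.36). These 3 defining genes of the labelled cell type were abundant in all 6 libraries. Tcl1, a co-activator of the kinase AKT, had 26.6, 29.6 and 29.9 CPM against 1.74, 1.59 and 1.62 CPM (-3.83 ± 0.18; adjusted p = 6.7e-16). The nuclear receptor genes Nr0b1 (-2.71) and Nr5a2 (-0.93), Dppa3, Fbxo15 (-2.01), the Kruppel-like factor gene Klf2 (-1.59), Prdm14 (-1.13), Gbx2 (-1.03), Esrrb (-0.83), Fgf4 (-0.71) and Zfp42 (-0.66) were lower, Zfp42 with no call without centring. Klf4 (179 ± 10.9 CPM against 377 ± 13.7 CPM; 0.73; adjusted p = 3.3e-05) and Stat3, the effector of LIF (0.78; adjusted p = 3.7e-04), were higher.

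Formative and primed genes were lower as well. Of 18 tested members 11 were lower and 3 higher (median -0.88), and 8 and 4 without centring. One of the 11 was Grhl2, whose tags include the transgene. Utf1, a chromatin factor of pluripotent cells, had 46.3, 51.1 and 48.8 CPM in Kmt2c-KO and 6.08, 7.71 and 7.59 CPM in double-KO libraries (-2.96 ± 0.13; limma adjusted p = 5.5e-17). Zic2 (-1.45), Foxd3 (-1.27) and Etv5 (-0.85) were lower, while Otx2, a factor of the formative state, was higher (3.72 ± 0.624 CPM against 13.1 ± 0.549 CPM; 1.24; adjusted p = 3.8e-07), as were Cdh2 (1.61) and Sox4 (2.73). The enzymes of DNA methylation overlap with this list through 3 genes. Of 14 tested members 8 were lower and 1 was higher (median -0.51), with 5 and 4 without centring. The de novo methyltransferase genes Dnmt3a (78.2 ± 1.89 CPM against 47.0 ± 3.09 CPM; -1.07 ± 0.10; adjusted p = 1.4e-09) and Dnmt3b (-1.39), the demethylase gene Tet1 (-1.48) and the imprint protector gene Zfp57 (-0.86; not called without centring, or without double-KO replicate 2, adjusted p = 0.0589) were lower beside Dnmt3l. Tet3 was higher (1.15 ± 1.04 CPM against 8.67 ± 0.581 CPM; 1.93; adjusted p = 1.0e-05), and the maintenance enzyme gene Dnmt1 was at 43.9 ± 3.46 CPM and 57.0 ± 2.39 CPM (0.03; adjusted p = 0.90), or called higher without centring (0.37; adjusted p = 0.0257).

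Markers of other early lineages were higher for some members and remained low for many. Of 12 primitive endoderm markers 6 were higher and 1 was lower, and 3 of the 6 reached 1 CPM in double-KO groups only. Dab2, an endocytic adaptor gene, had 0.824, 1.19 and 0.647 CPM in Kmt2c-KO and 24.6, 26.5 and 32.4 CPM in double-KO libraries (3.59 ± 0.24; limma adjusted p = 7.8e-13). The basement membrane collagen genes Col4a1 (5.25 ± 0.644 CPM against 77.6 ± 4.63 CPM; 3.31; adjusted p = 4.5e-13) and Col4a2 (3.12) were higher, as were Foxa2 (2.40), Gata6 (1.44) and Pdgfra (0.80), each with means under 7 CPM, and Pdgfra with no call without double-KO replicate 3 (adjusted p = 0.0599). Sparc, the most abundant marker, was lower (302 ± 5.47 CPM against 168 ± 3.69 CPM; -1.19; adjusted p = 7.7e-09), so that the summed level was 360 to 364 CPM against 386 to 407 CPM. Sox17, Cubn and Afp were not among the tested genes.

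Of 12 trophoblast markers 5 were higher and 2 lower (median 0.27). Gata3, a trophoblast transcription factor gene, had 3.17, 4.05 and 3.16 CPM in Kmt2c-KO and 27.5, 29.9 and 28.7 CPM in double-KO libraries (2.39 ± 0.21; limma adjusted p = 2.6e-10). The keratin genes Krt8 (1.64) and Krt18 (2.15), Gata2 (1.53) and Id2 (0.90) were higher, and Eomes (-1.91) and Tfap2c (-0.79; not called without centring) were lower. The summed level was 134 to 156 CPM against 384 to 424 CPM, and Cdx2, Elf5 and Hand1 were not among the tested genes. Of 11 neuroectoderm genes 7 were higher and 1 lower (median 0.69), and 1 of the 7 reached 1 CPM in double-KO groups only. Sox1 had 1.33, 2.86 and 2.09 CPM against 41.2, 42.6 and 45.2 CPM (3.51 ± 0.20; adjusted p = 3.9e-14), and the neurofilament gene Nefm was higher by 2.89. Feeder fibroblast markers were scarce in both lines. Of 4 tested, Col1a1, Col1a2 and Fbn1 were called higher (Fbn1 not without Kmt2c-KO replicates 2 or 3 or double-KO replicates 1 or 3; adjusted p = 0.0532 to 0.109), each with 1 CPM reached in double-KO groups only, and the summed level was 0.863 to 1.27 CPM against 4.65 to 7.56 CPM, with 1.33 to 1.97 CPM in Kmt2c-KO cells without the transgene. Col3a1, Postn, Lum, Dcn, Pdgfrb and S100a4 were not among the tested genes. Of 14 markers of cells that resemble the embryo at the stage of its first division, 4 were tested and 0 were called with limma (1, Zscan4d, was under an unadjusted p of 0.05, and 2 were called higher without centring), and their summed level was 9.51 to 10.2 CPM against 15.9 to 22.7 CPM. Whether cells of other types, or other states of the stem cells, contributed to these differences was not tested.

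Targets of p53 and genes of the G1 phase of the cell cycle had more higher than lower members. Of 21 genes in the list of p53 and its targets 11 were higher and 4 lower (median 0.60), with 15 and 3 without centring. Of the 11, 1 reached 1 CPM in double-KO groups only. Cdkn1a, which encodes the cell cycle inhibitor p21 (chromosome 17, 29090976 to 29100727), had 112, 104 and 110 CPM in Kmt2c-KO and 474, 446 and 486 CPM in double-KO libraries (1.75 ± 0.11; limma adjusted p = 4.0e-13). The membrane protein gene Perp (3.14), the antiproliferative gene Btg2 (2.08), the death receptor gene Fas (2.02), Bbc3 (0.99) and Mdm2 (0.70), the gene of the ligase that degrades p53, were higher. Trp53 itself, 1 of the 4 lower members, had 45.8 ± 9.29 CPM against 30.4 ± 0.996 CPM (-0.90 ± 0.32; adjusted p = 0.025). It had no call without centring and none without any 1 of the libraries except Kmt2c-KO replicate 3 (adjusted p = 0.0506 to 0.1). Pmaip1, which encodes the pro-apoptotic protein NOXA, was far lower, at 45.7, 55.0 and 43.1 CPM against 3.35, 4.48 and 3.44 CPM (-3.71 ± 0.18; adjusted p = 1.6e-15). Of 21 G1 genes 7 were higher and 1 (Mycl) was lower, with 11 and 1 without centring, beside 19.16% and 21.15% of all tested genes. Of the 7, 1 reached 1 CPM in double-KO groups only. Cdkn2a (27.0 ± 2.96 CPM against 104 ± 15.7 CPM; 1.55 ± 0.31; adjusted p = 3.0e-04) and the cyclin gene Ccnd2 (1.81) were among the higher ones.

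Growth and metabolism genes tended downward on the centred scale, as did abundant genes of any kind. The median was -0.22 for all genes between 100 and 1000 CPM and -0.59 for those with at least 1000 CPM. The counts below were not matched for level, so whether these lists differ from other genes of their level was not tested. Of 65 ribosomal protein genes 54 were lower and 0 higher (median -0.66), and without centring 35 were lower and 1 was higher. Rpl15 had 3458, 3439 and 3155 CPM in Kmt2c-KO and 2019, 2065 and 2083 CPM in double-KO libraries (-1.05 ± 0.07; limma adjusted p = 3.4e-12). Processed pseudogenes of ribosomal proteins make the assignment of single tags uncertain. Of 44 oxidative phosphorylation genes 18 were lower and 0 higher (median -0.25), which became 4 lower and 6 higher without centring. Of 24 glycolysis genes 12 were lower and 1 higher (median -0.43), or 7 and 4 without centring. The mitophagy receptor gene Bnip3 (82.1 ± 5.46 CPM against 20.6 ± 2.05 CPM; -2.30; adjusted p = 1.2e-12), Ldhb (-2.16), Pfkp (-1.38) and Pgk1 (-1.22) were the members named by smallest adjusted p, while the glucose transporter gene Slc2a3 was higher (1.09; adjusted p = 7.2e-05). Among 20 genes of serine synthesis and ATF4 targets 8 were lower and 2 higher, or 5 and 9 without centring. Of the 2, 1 reached 1 CPM in double-KO groups only. Asns, asparagine synthetase, was lower beside Cth (705 ± 13.4 CPM against 336 ± 25.5 CPM; -1.42; adjusted p = 4.3e-10).

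Signalling and junction genes had calls in both directions, beside 19.16% higher and 21.15% lower of all tested genes. Of 13 Nodal and BMP pathway genes 5 were higher and 4 lower (median 0.10), with 8 and 3 without centring (median 0.45). The Nodal antagonist gene Lefty1 had 44.6, 46.6 and 41.7 CPM in Kmt2c-KO and 12.3, 10.4 and 11.3 CPM in double-KO libraries (-2.22 ± 0.16; limma adjusted p = 6.1e-12). Its co-receptor gene Tdgf1 was lower (-0.995), while Id1 (21.4 ± 2.02 CPM against 126 ± 4.35 CPM; 2.16 ± 0.27; adjusted p = 4.5e-07) and Id3 (1.95), direct targets of BMP signalling, and Bmp4 (0.74) were higher, Bmp4 with no call without any 1 of the 6 libraries (adjusted p = 0.0523 to 0.126). Of 26 junction and epithelial genes, the class that GRHL2 is known to regulate, 8 were higher and 6 lower (median -0.26), with 8 and 3 without centring (median 0.08). Krt8, Krt18, Perp and Grhl3 (3.73 ± 1.38 CPM against 35.2 ± 4.74 CPM; 2.62; adjusted p = 6.4e-06) were among the higher ones, and Epcam (-1.29), the polarity gene Crb3 (-1.87) and Rab25 (-0.97; not called without centring, or without Kmt2c-KO replicate 2, adjusted p = 0.0682) among the lower ones. Of 18 genes of the KMT2 complexes 3 were higher and 3 lower (median 0.16), which is close to the shares of all tested genes, and 11 and 2 without centring. Ncoa6, a subunit particular to the KMT2C and KMT2D complexes, was higher (1.09; adjusted p = 3.5e-07), and Dpy30 (-1.12) and Wdr82 (-1.20) were lower. Members named beyond the rule given with the processing were chosen after their values were seen. The plot of 16 gene lists shows these members side by side.

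**Figure D3:**
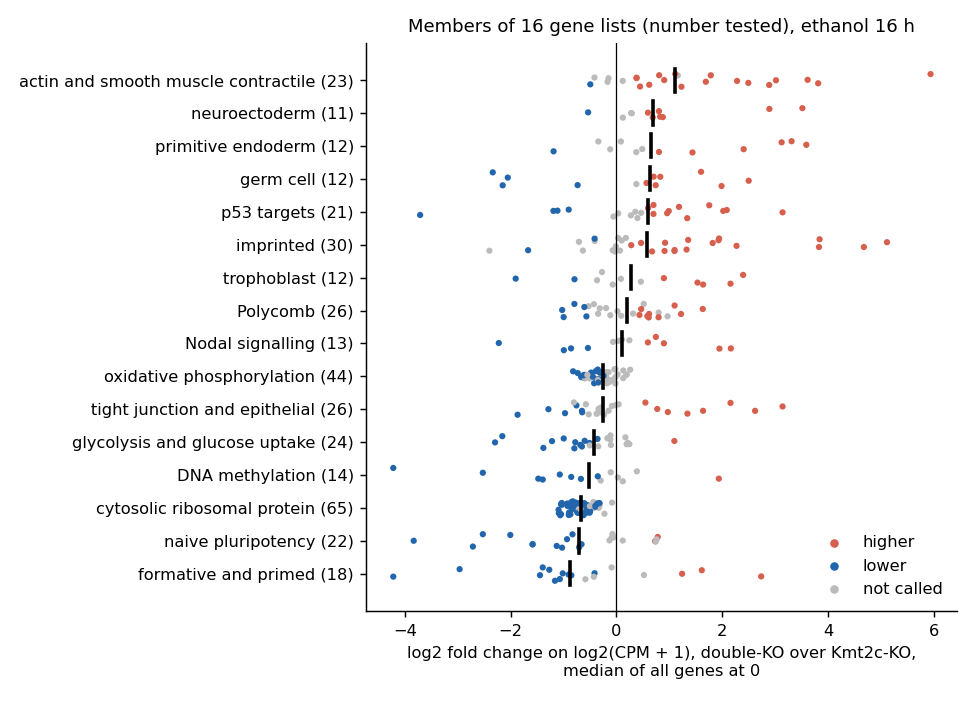
Each point is a tested member of a gene list, at its centred log2 fold change on log2(CPM + 1), double-KO over Kmt2c-KO, coloured red where called higher, blue where called lower and grey where not called. Black bars are list medians, which run from -0.88 for formative and primed genes to 1.11 for actin and contractile genes, and a gene in several lists is drawn in each.

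Genes of the Y chromosome were higher in double-KO cells, and were grouped after their values were seen. The 6 tested were called higher, from 0.87 to 5.09, and 2 of them reached 1 CPM in double-KO groups only. Ddx3y, an RNA helicase gene, had 23.3, 25.2 and 23.4 CPM in Kmt2c-KO and 144, 135 and 140 CPM in double-KO libraries (2.15 ± 0.13; limma adjusted p = 6.4e-14). Eif2s3y, a translation initiation factor gene, had 0.507, 0.318 and 0.575 CPM against 67.3, 63.7 and 56.8 CPM (5.09 ± 0.28; adjusted p = 1.5e-14). Kdm5d was at 0 in each Kmt2c-KO library and at 3.04, 4.83 and 4.41 CPM in double-KO libraries, at least 19.06-fold higher when the Kmt2c-KO group is set to the mean CPM that 3 reads give in its libraries. Kmt2c-KO cells without the transgene had 60.6 CPM of Ddx3y and 4.44 CPM of Eif2s3y, between the lines. These genes have X-linked relatives, so tags could be shared.

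The fold changes also differed between chromosomes. The median over the genes of a chromosome was -0.35 on chromosome 17 (603 genes), -0.35 on chromosome 14 (412 genes), -0.27 on chromosome 9 (675 genes) and -0.22 on chromosome 12 (426 genes). On chromosome 8 (632 genes) it was 0.21, and the other autosomes and X lay between -0.04 and 0.12. Of the genes on chromosomes 17, 14, 9 and 12, 38.5%, 38.6%, 36.4% and 27.5% were called lower, beside 21.15% of all tested genes. In windows of 20 Mb with at least 20 tested genes, every window of chromosomes 9, 12, 14 and 17 had a median below 0. On chromosome 8 the first 4 windows had medians of 0.33 to 0.60, and the last 3 had medians of -0.07 to 0.06. The 8 h libraries gave -0.40, -0.28, -0.30 and -0.24 on chromosomes 17, 14, 9 and 12 and 0.31 on chromosome 8. Without the transgene, Kmt2c-KO cells differed from GRHL2-ERT Kmt2c-KO cells in tamoxifen at 16 h by medians of -0.01 to 0.01 on these 5 chromosomes. That median was -0.12 on chromosome 3 and 1.06 on chromosome Y (6 genes), so these 2 kinds of Kmt2c-KO cells were not alike on every chromosome. DNA was not measured here. With each chromosome centred on its own median, an alternative added after the data were seen, 2225 genes were higher and 2354 lower.

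**Figure D4:**
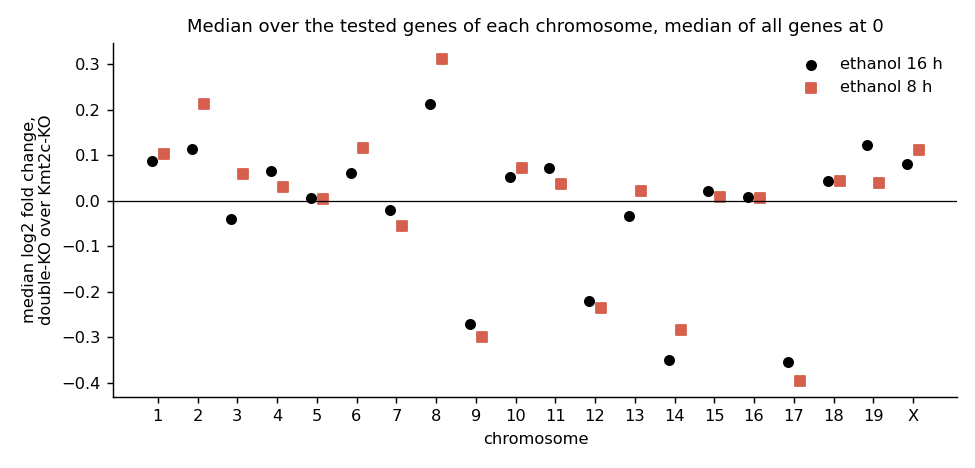
Points give the median centred log2 fold change, double-KO over Kmt2c-KO, over the tested genes of each chromosome, at 16 h (black circles) and 8 h (red squares) in ethanol. Chromosomes 9, 12, 14 and 17 lie between -0.40 and -0.22 at both times, and chromosome 8 lies highest at both times. Chromosome Y, with 6 genes, is not drawn.

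Promoters of the strongly differing genes held fewer CG dinucleotides than those of other genes. In the 250 bases before the start, 7517 tested genes with a single RefSeq entry had a median observed over expected CG ratio of 0.753. The ratio was 0.666 for genes higher by at least 1 (547 with an entry) and 0.532 for genes lower by at least 1 (471 with an entry). A ratio under 0.35 was found for 10.4% of all these genes, 16.5% of the higher and 34.4% of the lower ones. A gene of each direction is shown, with each CG in capitals, from RefSeq on GRCm38.p6. Xlr3a holds 3 and Tcl1 holds 7 CG dinucleotides in this stretch. The median was 15 for the higher, 10 for the lower and 17 for all genes, so that Xlr3a in particular lies far below its own group.
Xlr3a (chrX:73097096-73097345, minus strand): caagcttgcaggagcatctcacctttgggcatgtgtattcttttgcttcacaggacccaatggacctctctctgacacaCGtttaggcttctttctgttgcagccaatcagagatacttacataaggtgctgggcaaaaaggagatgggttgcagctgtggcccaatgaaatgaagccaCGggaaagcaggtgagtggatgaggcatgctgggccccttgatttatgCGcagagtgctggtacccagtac
Tcl1 (chr12:105222738-105222987, minus strand): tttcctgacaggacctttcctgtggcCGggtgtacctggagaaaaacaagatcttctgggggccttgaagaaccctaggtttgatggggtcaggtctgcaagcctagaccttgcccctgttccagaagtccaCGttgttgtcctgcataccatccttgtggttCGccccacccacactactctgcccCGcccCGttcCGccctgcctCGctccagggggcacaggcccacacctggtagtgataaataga
Methylation of these promoters was not measured in the data used here.

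The same lines were sampled in other libraries, which share none with the 6 compared. In tamoxifen at 16 h 2571 genes (20.71%) were higher and 2609 (21.02%) lower, and 1967 of the 2378 genes higher in ethanol and 2147 of the 2626 lower ones were called in the same direction. That is 82.7% and 81.8% of the ethanol calls and 76.5% and 82.3% of the tamoxifen calls, and no gene was called in opposite directions. In ethanol at 8 h 2315 genes (18.65%) were higher and 2839 (22.87%) lower. Of the 16 h calls 1429 higher genes (60.1%) and 1847 lower genes (70.3%) were called in the same direction at 8 h, and 41 and 16 in the opposite one. Acta2 (5.90 in tamoxifen at 16 h and 3.32 in ethanol at 8 h), Peg10 (5.07 and 3.58), Pla1a (-5.58 and -4.50) and Dnmt3l (-4.17 and -3.19) kept their directions in both. Kmt2c-KO cells without the transgene, in tamoxifen at 16 h, were set beside the GRHL2-ERT groups in tamoxifen at 16 h, not those in ethanol. After centring on the median gene, their mean log2(CPM + 1) was nearer to Kmt2c-KO than to double-KO cells for 4696 of the 5004 genes called (93.8%). The same held for all 30 genes with the largest differences. The share over all tested genes was not taken, so these shares have no baseline beside them.

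The difference between the lines itself changed from 8 h to 16 h for 534 genes (4.302% of those tested), 347 (2.795%) with a more positive and 187 (1.506%) with a more negative value at 16 h. The 347 became 229 without double-KO replicate 3 of 16 h, and the 187 became 118 without double-KO replicate 2 of 8 h and 123 without Kmt2c-KO replicate 3 of 16 h. With array weights they were 1133 and 1226, and with only the libraries of the contrast 533 and 373, so neither the counts nor their balance is firm. For several of the genes it was the level in Kmt2c-KO libraries that differed between the times. At 8 h in ethanol Rn45s took 5.39, 4.02 and 7.40% of reads in Kmt2c-KO and 3.42, 3.88 and 4.82% in double-KO libraries. At 16 h these shares were 2.11 to 2.61% and 1.85 to 2.49%. In the 8 h libraries 3 reads stood for 0.178, 0.184 and 0.243 CPM in Kmt2c-KO and 0.147, 0.136 and 0.152 CPM in double-KO. Whether such differences between libraries contributed to the changes was not tested. At 8 h Nr0b1, a nuclear receptor gene of naive cells, stood at 2.56 ± 1.55 CPM in the Kmt2c-KO line and at 4.21 ± 2.45 CPM in the double-KO line (SD, n = 3 each). At 16 h it had 52.2, 64.2 and 46.2 CPM against 10.2, 11.4 and 7.59 CPM, and the lines stood apart at 16 h (change of -2.92 ± 0.76; limma adjusted p = 0.028). That call was lost without 7 of the 12 libraries left out in turn (adjusted p = 0.0536 to 0.0769), namely Kmt2c-KO replicates 1 and 2 and double-KO replicates 1 and 3 of 16 h, and Kmt2c-KO replicate 1 and double-KO replicates 1 and 2 of 8 h. A pseudocount of 0.1 ended it too (-3.19; adjusted p = 0.114). Enox1, which encodes a surface oxidase, had 3.49 ± 1.07 CPM against 2.76 ± 0.239 CPM at 8 h and 40.8 ± 3.13 CPM against 3.44 ± 0.117 CPM at 16 h (-3.05 ± 0.32; adjusted p = 9.6e-07). Krt18 had 74.8 ± 5.31 CPM against 81.2 ± 10.4 CPM at 8 h and 17.4, 14.3 and 20.7 CPM against 103, 101 and 103 CPM at 16 h (2.34 ± 0.21; adjusted p = 9.1e-08). Lefty2, like Lefty1 a Nodal antagonist gene, was lower in double-KO cells at 8 h (-2.66; adjusted p = 1.3e-17) and at -0.06 (adjusted p = 0.67) at 16 h, or 0.28 (adjusted p = 0.030) without centring. Double-KO cells held 37.7 ± 3.82 CPM of Lefty2 at 8 h and 161 ± 5.85 CPM at 16 h. The plot of both times sets these genes against the line of equal values.

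**Figure D5:**
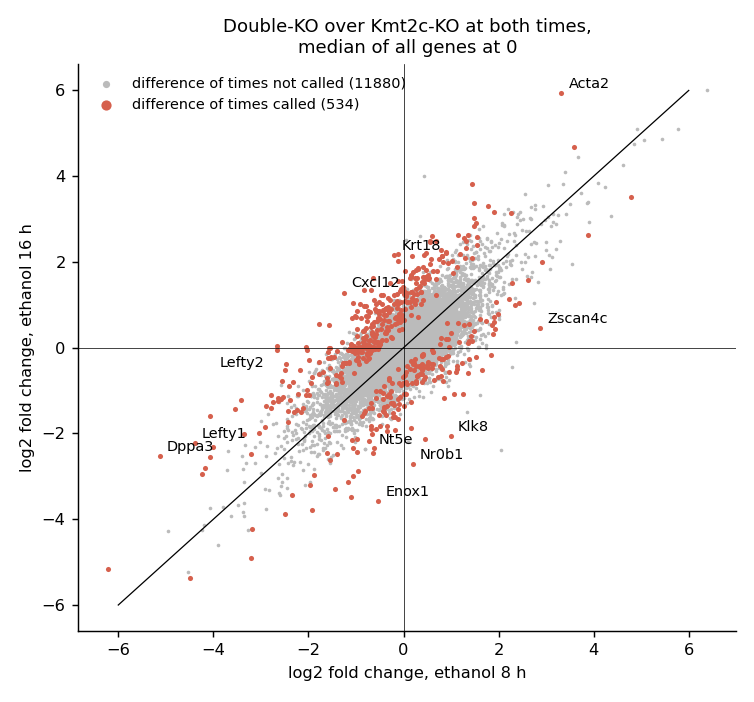
Each point is a tested gene, with its centred log2 fold change, double-KO over Kmt2c-KO, in ethanol at 8 h on the horizontal and at 16 h on the vertical axis. The 534 genes whose difference between the times was called are red, the diagonal marks equal values, and Nr0b1, Enox1, Krt18 and Lefty2 lie far from it.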

How the data were processed

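RNA from naive mouse embryonic stem cells was sequenced from the 3' ends of transcripts with a QuantSeq forward kit on single-end reads, per the labels' protocols. The authors' deposited values are on a log2 scale, and the values themselves showed log2(CPM + 0.125) over the 12428 genes of the table, in 30 libraries. Salmon, DESeq2 1.34.0 and the mm10 build are named per the submitters' processing notes, with no roles, and whether counting used strand is not given in the sources used here. CPM was recovered by removing the offset. Between 96.1 and 97.7% of low values in the 6 libraries were whole reads within 0.05 read, which gave the depths. Adjusted p-values came from limma 3.58.1 (R 4.3.3, trend and robust options) on log2(CPM + 1), fitted to all 30 libraries as 10 group means with 20 residual degrees of freedom. A gene was tested where its mean reached 1 CPM in any group (12414 genes), each contrast was centred on its median, and p was adjusted by Benjamini-Hochberg over all tested genes. The design had foreseen CPM values, and the test was run as planned from the log2 values.

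Named genes were the 15 largest and 15 smallest centred fold changes among called genes with at least 5 CPM in the higher group, no overlap between groups and a symbol that is not a clone name or prediction, 5 in each direction of the difference between 16 h and 8 h, up to 4 members of each of 28 gene lists by smallest adjusted p, and Kmt2c, Kmt2d, Grhl2, Esr1, Pou5f1, Nanog and Sox2. Some genes that the rule names are not reported here. The comparison and the lists were chosen with earlier results of these data known. Coordinates came from GENCODE M21 on mm10 for the 11945 genes (96.1%) with a unique symbol, and promoters from RefSeq on GRCm38.p6. The test was checked on simulated data. Alternatives changed the centring, scaling, pseudocount, filter, libraries in the fit, weights, a block for the replicate number, the fold threshold and single libraries.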

Additional observations from a re-analysis of the deposited data

Results flagged for a closer look

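For 9 genes described here the difference between double-KO and Kmt2c-KO cells in ethanol itself differed between 8 h and 16 h by a limma test of that change (adjusted p under 0.05), and these were among the 5 largest changes in each direction (mean ± SD, n = 3 libraries a group, Kmt2c-KO given first and double-KO after it; change on the centred log2(CPM + 1) scale ± SE). In 4 of them the double-KO level was relatively higher at 16 h. Acta2, the smooth muscle actin gene, went from 14.5 ± 4.64 CPM against 185 ± 8.06 CPM at 8 h to 0.947 ± 0.115 CPM against 151 ± 11 CPM at 16 h (2.61 ± 0.35; adjusted p = 2.2e-05). In Acta2 the Kmt2c-KO level was the one that differed most between the times. Dppa3, a maternal factor gene of naive cells, went from 58.7 ± 7.56 CPM against 1.23 ± 0.976 CPM at 8 h to 16.9 ± 1.3 CPM against 2.96 ± 0.385 CPM at 16 h (2.59 ± 0.32; adjusted p = 7.3e-06). Lefty2, a Nodal antagonist gene, went from 197 ± 31.0 CPM against 37.7 ± 3.82 CPM at 8 h to 132 ± 2.95 CPM against 161 ± 5.85 CPM at 16 h (2.58 ± 0.15; adjusted p = 3.4e-12). Cxcl12, a chemokine gene, went from 3.16 ± 1.21 CPM against 1.13 ± 0.333 CPM at 8 h to 0.159 ± 0.0881 CPM against 2.69 ± 1.04 CPM at 16 h (2.52 ± 0.32; adjusted p = 1.2e-05).

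The other 5 had relatively lower double-KO levels at 16 h. Klk8, a kallikrein protease gene, went from 0.622 ± 0.395 CPM against 2.96 ± 0.631 CPM at 8 h to 4.22 ± 1.24 CPM against 0.600 ± 0.450 CPM at 16 h (-3.07 ± 0.46; adjusted p = 8.8e-05). Enox1, a surface oxidase gene, went from 3.49 ± 1.07 CPM against 2.76 ± 0.239 CPM at 8 h to 40.8 ± 3.13 CPM against 3.44 ± 0.117 CPM at 16 h (-3.05 ± 0.32; adjusted p = 9.6e-07). In Enox1 the double-KO levels were alike at both times and the Kmt2c-KO level was high at 16 h. Nr0b1, a nuclear receptor gene, went from 2.56 ± 1.55 CPM against 4.21 ± 2.45 CPM at 8 h to 54.2 ± 9.17 CPM against 9.73 ± 1.95 CPM at 16 h (-2.92 ± 0.76; adjusted p = 0.028). Nt5e, the gene of the surface nucleotidase CD73, went from 0.583 ± 0.505 CPM against 1.65 ± 0.620 CPM at 8 h to 6.32 ± 0.762 CPM against 1.14 ± 0.303 CPM at 16 h (-2.60 ± 0.34; adjusted p = 1.9e-05). Zscan4c, a member of a family of near-identical copies, went from 0.662 ± 0.752 CPM against 13.2 ± 1.86 CPM at 8 h to 6.06 ± 0.835 CPM against 11.3 ± 2.19 CPM at 16 h (-2.43 ± 0.32; adjusted p = 1.6e-05).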

How the results depend on the processing

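Without centring the counts of higher and lower genes became 4967 and 1236 in ethanol at 16 h, 4664 and 1472 in ethanol at 8 h, and 5116 and 1250 in tamoxifen at 16 h, since every gene then keeps the common shift. With a log2 fold change of at least 1 asked for, they were 912 and 856, 868 and 927, and 891 and 872, and 205 and 107 for the change from 8 h to 16 h, which a stricter rule must lower. Fitted only to the libraries of the contrast, 3583 genes were higher at 16 h, and 533 and 373 changed upward and downward between the times. Array weights gave 3646 higher genes at 16 h, and 1133 and 1226 for the change between times. For these the cause was not tested. The other counts under these settings, and all under median-of-ratios scaling, the other pseudocounts and filters, only the 15 libraries of 16 h and centring each chromosome on its own median (both added after seeing the data), were within 1.5 times.

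The labels do not say whether a replicate number is shared between the lines. Deviations of same-numbered libraries in ethanol correlated at 0.017, 0.050 and 0.002 at 16 h, and at -0.24, 0.17 and -0.049 at 8 h. With the number as a replicate block the counts were 3710 and 3941 at 16 h, and 281 genes changed downward between the times. The block was fitted only to the libraries of the contrast. Those libraries without a block gave 3583 and 3821 at 16 h, and 373 genes that changed downward.

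Leaving out 1 library gave 2033 to 2104 higher and 2217 to 2299 lower genes at 16 h, 1857 to 2284 and 2302 to 2735 at 8 h, 2116 to 2344 and 2191 to 2392 in tamoxifen, and 229 to 350 and 118 to 224 for the change between times, with fewer samples in each.

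Genes near 0 and not called changed sign. Without centring Hoxc12 was at 0.28, Lefty2 at 0.28, Nanog at 0.29 and Rhox13 at 0.24. With median-of-ratios scaling Hoxc12 was at 0.14 and Rhox13 at 0.086. A pseudocount of 0.1 put Dnmt1 at -0.015 and Hoxc12 at 0.66, and one of 5 put Lefty2 at 0.043 and Nanog at 0.055. Over left-out libraries Dnmt1 ranged from -0.0036 to 0.081, Hoxc12 from -0.37 to 0.34 and Rhox13 from -0.40 to 0.21. Of these, Lefty2 without centring was called (adjusted p = 0.030).

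Pou5f1, Kmt2d and Kmt2c, not called above, were called with only the libraries of the contrast (adjusted p = 8.7e-11, 5.3e-03 and 0.0182). A pseudocount of 5 ended the calls of Col1a1, Fbn1, Hoxa11, Pdgfra, S100a11 and Zfy1, and one of 0.1 those of Bmp4 and Esr1 at 16 h and of Nr0b1 for the change between times. Only the 15 libraries of 16 h ended those of S100a11 and Trp53, and chromosome centring those of Fbn1, Spry2 and Zfp57. Hoxd4 and Zscan4d were called with median-of-ratios scaling, a pseudocount of 0.1 or array weights. Genes under about 0.2 CPM rest on fewer than 3 reads a library, and 1 line of each genotype limits what any count can show.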

Other observations

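The lists not described above are read beside 19.16% of tested genes called higher and 21.15% called lower. Of 20 collagen and basement membrane genes 5 were higher and 3 lower (median 0.29), with 12 and 1 without centring (median 0.64), and 2 of the 5 reached 1 CPM in double-KO groups only. Serpinh1, a chaperone of collagen, was higher by 1.52 on the log2 scale. Of 9 tested mesoderm and primitive streak genes, Wnt3 was higher (1.86) and Eomes and Lef1 (-1.16) were lower. Of 14 FGF and MAPK feedback genes the receptor genes Fgfr1 (0.82) and Fgfr2 (1.22) were higher, and Etv1 (-1.07), Etv5 and Spry2 (-0.79; not called without centring) were lower. Of 13 interferon and antiviral genes 2 were higher and 4 lower, among the former Tap1 (1.26), which loads peptides for presentation, and among the latter Irf1 (-1.41), Irf9 (-1.06) and Ddx58.

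Of 27 genes of cholesterol and fatty acid synthesis 5 were higher and 6 lower (median -0.01), with 10 and 0 without centring, and the desaturase genes Scd1 (0.91) and Scd2 (1.57) were higher. Of 20 replication-dependent histone genes and related genes 0 were higher and 4 lower (median -0.49), with 3 and 3 without centring.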
